A study of Homo sapiens with 4 samples.

Results

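The genes described here encode nuclear subunits of the 5 oxidative phosphorylation complexes, assembly factors from the same gene families, and cytochrome c. Members were picked by gene symbol (the NDUFA, NDUFB, NDUFC, NDUFS, NDUFV, SDH, UQCR, COX and ATP5 families with CYC1 and CYCS) among probes with exactly 1 symbol in the platform annotation. The group itself was chosen with earlier results of these data known. The rule found 93 probes for 69 genes, of 20976 probes with 1 symbol and 12483 genes. Of 83 nuclear subunits listed, 56 were measured: 25 of 37 in complex I, 2 of 4 in complex II, 6 of 9 in complex III, 11 of 16 in complex IV and 12 of 17 in complex V. The remaining members were 9 assembly factors, CYCS, the ATP synthase inhibitor ATP5IF1, COX7A2L and the antisense transcript NDUFB2-AS1. Another 11 probes carried a member symbol together with other genes and were not used.

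A549 is an established human lung adenocarcinoma line. Cultures transfected with let-7a-3 were each hybridised against a culture of the untransfected parental line on 4 two-colour cDNA arrays, with the dyes exchanged between arrays 1 and 3 and arrays 2 and 4. All cultures were grown in serum-supplemented DMEM with no other treatment, and the design text calls them biological replicates. The sources used here do not give the promoter of the construct or say whether the transfected cultures came from 1 line or several. Since the controls were parental cells, effects of transfection and of let-7a-3 cannot be told apart.

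The values are the log ratios that the authors deposited. The log base, the channel in the numerator and whether any column was turned are not stated. The culture that a positive log ratio favours is therefore unknown, the sign of every value could be the reverse, and no fold is given. In RNA of whole cultures, fewer cells of a type and less RNA per cell cannot be told apart.

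let-7a-3 is 1 of several human genes that give the same mature let-7a. Its sequence is shown from RefSeq (GRCh38.p14, chr22:46112752-46112773, plus strand), with the seed, bases 2 to 8, in capitals.
hsa-let-7a-5p: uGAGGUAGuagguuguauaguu

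Oxidative phosphorylation takes place in the inner mitochondrial membrane. Complex I accepts electrons from NADH and complex II from succinate. Coenzyme Q carries them to complex III, and cytochrome c carries them on to complex IV, where oxygen is reduced. Complexes I, III and IV pump protons, and complex V, the ATP synthase, uses the gradient to make ATP. Most subunits are encoded in the nucleus and the rest by mitochondrial DNA.

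For each gene the 4 log ratios were split in limma into a shared component, which is the mean of the arrays when all 4 are fitted, and an alternating component, which follows the dye orientation and is given with the sign of arrays 1 and 3. If the columns were turned to 1 orientation before deposit, the difference between cultures lies in the shared component and dye effects in the alternating one. If they were not turned, the reverse holds. Which case applies is unknown, so no call in either component can be told apart from a dye effect. Errors are standard errors (SE) of that fit over n = 4 arrays. Adjusted p-values are two-sided limma values with Benjamini-Hochberg adjustment over all 12483 genes, or over all 26629 probes where probes are named.

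Over all probes the array medians lay between -0.0022 and 0.017 and the standard deviations between 0.173 and 0.193, and 4 arrays limit the precision. Log ratios hold no expression level, so the A549 label could not be checked against markers. Of 5 epithelial markers measured, KRT8 passed an adjusted p of 0.05 in the shared component (0.39 ± 0.052, adjusted p = 0.00698), where 3.04% of all genes did. KRT19, EPCAM, CDH1 and CLDN4 did not pass in the shared component, at -0.0039, 0.095, -0.048 and 0.011. None of 5 fibroblast, 4 endothelial and 3 blood markers passed there in limma, with 1, 1 and 0 at an unadjusted p under 0.05. TEK, an endothelial marker, passed in the alternating component (-0.20 ± 0.040, adjusted p = 0.0439), where 3.29% of all genes did. The part of other cell types in the results was not tested.

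In the shared component 8 of 69 member genes had an adjusted p under 0.05 in limma (11.6%), where 3.04% of all genes did. Positive values made up 6 of the 8, where 1.63% of all genes were called positive, and negative values 2, where 1.41% were. The positive genes were SDHA of complex II, COX7C and COX7B of complex IV, and NDUFB5, NDUFC1 and NDUFS5 of complex I. The negative genes were NDUFA8 of complex I and ATP5IF1, the inhibitor of complex V. Subunits of complexes III and V had no call in limma, with 1 of 6 and 8 of 12 at an unadjusted p under 0.05. An unadjusted p under 0.05 was reached by 26 members, while 1822 of all 12483 genes reached it. Leaving out array 2 reduced the 8 calls to 4, where 1.43% of all genes were then called, and leaving out array 4 reduced them to 3, where 1.63% were. Without array 3 there were 17 calls, where the share of all genes called also rose, to 11.8%.

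In the alternating component 1 member gene passed, NDUFB9 of complex I, with a negative value. This was 1.45% of the members, where 3.29% of all genes passed, 1.39% with negative and 1.9% with positive values. An unadjusted p under 0.05 was reached by 26 members and by 3197 of all genes. Without array 1 the count was 20, where 18.4% of all genes were then called, and without array 3 it was 9, where 12.7% were, a share close to that of the members. It was 0 without array 2 or array 4 (14 and 16 at an unadjusted p under 0.05 in limma), where 0.312% and 0.553% of all genes were called.

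The medians of both components went opposite ways. Of the 69 members, 47 were positive in the shared component (68.1%, where 54.2% of all genes were), with a median of 0.051, and the median of all genes was 0.0069. In the alternating component 50 were negative (72.5%, where 53.8% of all genes were), with a median of -0.076, and that of all genes was -0.0081. The sign of the alternating component is a convention. Array by array, the members lay near 0 on arrays 1 and 3, at medians of 0.0047 and -0.0038, and above 0 on arrays 2 and 4, at 0.14 and 0.11. Over all genes the medians of arrays 1 to 4 were 0.0031, 0.015, 0.00041 and 0.011. These genes were chosen with this pattern known. The medians and the counts by sign or array order, here and below, describe the data and support nothing further.

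**Figure D1:**
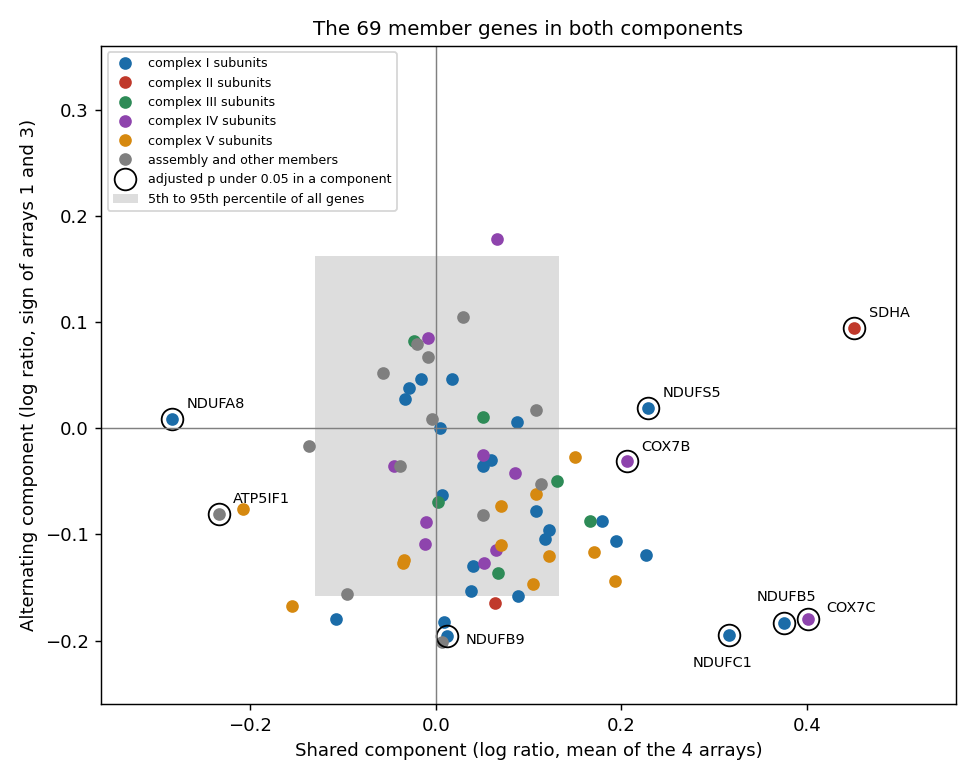
Shared component (x axis, log ratio) against alternating component (y axis, log ratio with the sign of arrays 1 and 3) for the 69 member genes, coloured by complex, with genes past an adjusted p of 0.05 in a component ringed and the central range of all genes shaded. COX7C, NDUFB5 and NDUFC1 lie together at positive shared and negative alternating values, SDHA lies farthest right with a positive alternating value, and NDUFA8 and ATP5IF1 lie at the left.

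Gene by gene, both of arrays 2 and 4 lay above both of arrays 1 and 3 in 38 of 69 members (55.1%), where 31.1% of all genes had this order. They lay below in 9 members (13.0%), where 25.9% of all genes did. All 4 arrays were positive in 15 members (21.7%), where 8.84% of all genes were, and all 4 were negative in 5 members (7.25%), where 6.94% were. Over the 69 members, Pearson r was 0.53 for arrays 1 and 2 and 0.45 for arrays 1 and 4, but 0.18 for arrays 2 and 3 and 0.091 for arrays 3 and 4. Arrays of 1 orientation had r = 0.53 (arrays 1 and 3) and 0.66 (arrays 2 and 4). Over all 12483 genes the pairs of 1 orientation had r = 0.48 and 0.59, near the members' values, and the pairs of opposite orientation lay between -0.065 and 0.12. These correlations are across genes, which are not independent and share their arrays and normalization.

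Complex I, the NADH dehydrogenase, has a catalytic core, whose nuclear subunits bind the flavin and the iron-sulfur clusters, and many supernumerary subunits around it. The 5 measured core subunits (NDUFS3, NDUFS7, NDUFS8, NDUFV1 and NDUFV2) lay between -0.033 and 0.040 in the shared component. None passed in limma, and none had an unadjusted p under 0.05. The 20 supernumerary subunits ranged from -0.28 to 0.38 with a median of 0.088, where that of the core was 0.0087. Of these 20, 3 passed with positive and 1 with negative values, where 1.63% and 1.41% of all genes did. An unadjusted p under 0.05 was reached by 10 of the 20 and by 1822 of all 12483 genes. All 4 arrays were positive in 8 of the 20 and in 0 of the 5 core subunits, where 8.84% of all genes were. The value of NDUFV2 near 0 averages 3 probes that disagreed, at -0.13 ± 0.069, -0.051 ± 0.072 and 0.21 ± 0.049, of which the last was positive on all 4 arrays (adjusted p = 0.0729 in limma). The difference between both kinds of subunit was not tested.

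NDUFB5, a supernumerary subunit of the membrane arm, stood at 0.23, 0.51, 0.15 and 0.60 on arrays 1 to 4. All arrays were positive, with arrays 2 and 4 above arrays 1 and 3. Its shared value was 0.38 ± 0.042 (SE, n = 4; adjusted p = 0.00262) and its alternating value -0.18 ± 0.042 (adjusted p = 0.0552). NDUFC1, another small subunit of the membrane arm, stood at 0.16, 0.46, 0.084 and 0.56, again positive throughout and in the same order of arrays. Its shared value was 0.32 ± 0.042 (adjusted p = 0.00686) and its alternating value -0.19 ± 0.042 (adjusted p = 0.0518). The shared call of NDUFC1 was lost without array 4 (adjusted p = 0.0521 in limma).

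NDUFS5, a cysteine-rich subunit on the intermembrane face, stood at 0.25, 0.26, 0.25 and 0.16. Arrays 1 to 3 lay close together and array 4 lay below them, so the orientations did not separate (shared 0.23 ± 0.041, adjusted p = 0.0253). NDUFA8, a related cysteine-rich subunit on the same face, stood at -0.37, -0.29, -0.18 and -0.30. It was negative on all arrays, with the lowest shared value of all members (-0.28 ± 0.046, adjusted p = 0.0168). Without array 2 or array 4 both calls were lost. The shared value of NDUFA8 hardly moved there, at -0.29 without array 2 and -0.28 without array 4. That of NDUFS5 ran from 0.20 to 0.25 over the fits with 1 array left out.

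NDUFB9, a supernumerary subunit of the membrane arm, was the member called in the alternating component. It stood at -0.14, 0.22, -0.23 and 0.20, negative in 1 orientation and positive in the other, with a shared value of 0.013 ± 0.041. The alternating value was -0.20 ± 0.041 (adjusted p = 0.0473). The call was lost without array 2 (adjusted p = 0.227 in limma), without array 4 (0.188), with arrays centred on their medians (0.0516) and with arrays scaled to equal spread (0.0515). Core subunits were not all near 0 in this component either: NDUFV1, which binds NADH, stood at -0.13 ± 0.052 and NDUFV2, its partner, at -0.18 ± 0.055 (adjusted p = 0.169 and adjusted p = 0.0978, named after their values were seen).

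NDUFB2 and NDUFB4, also in the membrane arm, had 2 probes each, of which 1 passed in the shared component. For NDUFB2 the probes stood at 0.30 ± 0.051 (adjusted p = 0.0169) and 0.055 ± 0.052. For NDUFB4 they stood at 0.27 ± 0.051 (adjusted p = 0.0320) and 0.12 ± 0.053. The probes of each gene had 1 sign, and the gene averages of 0.18 and 0.19 did not pass (adjusted p = 0.0736 and adjusted p = 0.0596). The antisense transcript NDUFB2-AS1 stood at 0.12, 0.035, 0.15 and -0.19. Its gene overlaps NDUFB2 only in part, and whether the clone lies in the overlap was not checked. If it does, it cannot be told apart from NDUFB2 without knowing the strand.

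Complex II, succinate dehydrogenase, also belongs to the citrate cycle. SDHA, its flavoprotein, which oxidises succinate, stood at 0.49, 0.36, 0.60 and 0.35. It was positive on all arrays and higher on arrays 1 and 3, the reverse of the order in NDUFB5, NDUFC1 and COX7C. Its shared value was 0.45 ± 0.042 (adjusted p = 0.000931), the highest of the members, and its alternating value 0.094 ± 0.042 (adjusted p = 0.203).

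SDHC, a membrane anchor of complex II, stood at 0.041, 0.25, -0.24 and 0.21, low on array 3 and higher on arrays 2 and 4. Its shared value was 0.064 ± 0.053 (adjusted p = 0.643) and its alternating value -0.16 ± 0.053 (adjusted p = 0.112). Without array 1 the fitted shared value was -0.0074, in a fit that then rests on array 3 alone for its orientation and gives it more weight than a plain mean would. The alternating value was -0.094 without array 3. The complex II median rests on these 2 genes alone.

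**Figure D2:**
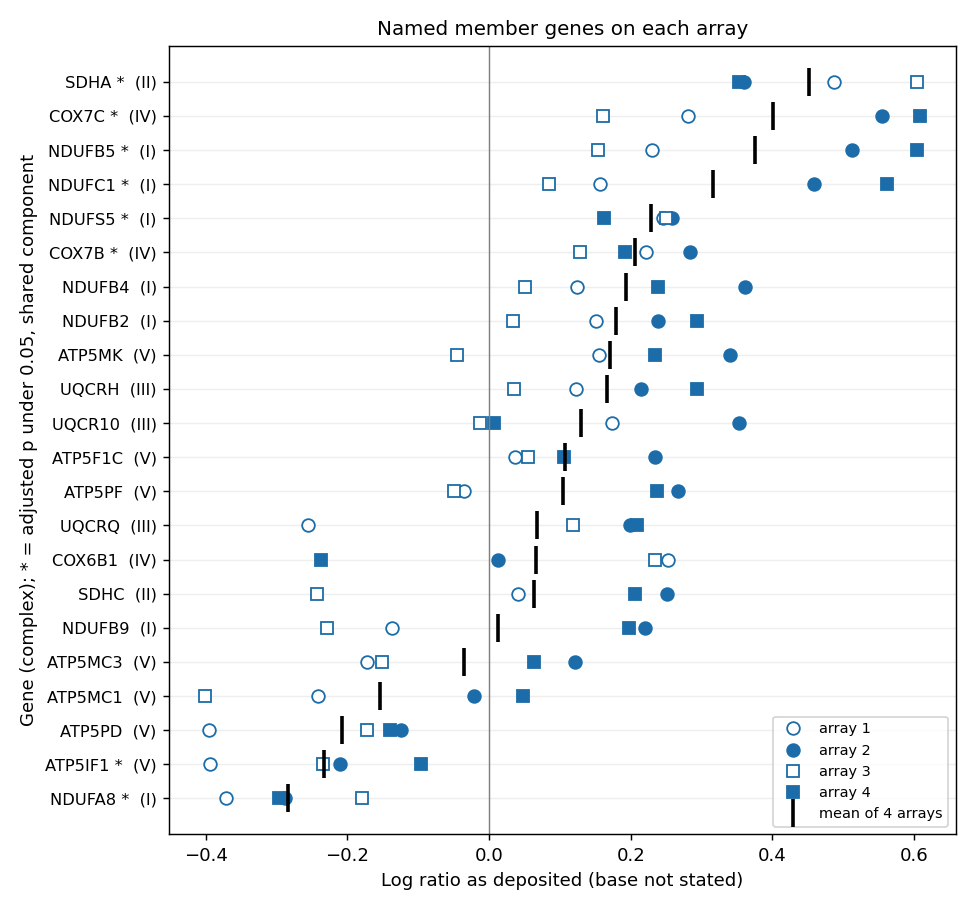
Log ratio as deposited (x axis, base not stated) on each of the 4 arrays for the 22 member genes named by rule (y axis; a star marks a call in the shared component), with arrays 1 and 3 as open and arrays 2 and 4 as filled symbols and the mean of the 4 arrays as a black bar. SDHA, COX7C, NDUFB5 and NDUFC1 are positive on all arrays, NDUFA8 and ATP5IF1 are negative on all arrays, and NDUFB9 changes sign with the dye orientation.

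In complex III, the cytochrome bc1 complex, shared values lay between -0.023 and 0.17 with a median of 0.059. None of 6 subunits passed in either component in limma (1 and 0 at an unadjusted p under 0.05). UQCRH, the hinge protein next to cytochrome c1, stood at 0.12, 0.21, 0.036 and 0.29 (shared 0.17 ± 0.042, adjusted p = 0.0879; alternating -0.087 ± 0.042). It was positive on all arrays, and arrays 2 and 4 were higher.

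UQCR10, a small subunit, stood at 0.17, 0.35, -0.013 and 0.0075 (shared 0.13 ± 0.063, adjusted p = 0.402), so that arrays 1 and 2 were positive and arrays 3 and 4 near 0. The shared value ran from 0.044 without array 2 to 0.22 without array 4. UQCRQ, another small subunit, stood at -0.26, 0.20, 0.12 and 0.21, negative on array 1 alone (alternating -0.14 ± 0.061, adjusted p = 0.207). Its alternating value was -0.043 without array 1 and -0.23 without array 3. The core proteins UQCRC1 and UQCRC2 had shared values of 0.051 and 0.0021, and UQCRB one of -0.023. Medians of the 6 genes were 0.015, 0.083, 0.051 and 0.19 on arrays 1 to 4, with array 4 the highest.

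Cytochrome c, CYCS, had 2 probes that differed. In the shared component they stood at 0.20 ± 0.052 (adjusted p = 0.117) and 0.031 ± 0.053. In the alternating component the same probes had opposite signs, -0.17 ± 0.052 and 0.068 ± 0.053.

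Complex IV, cytochrome c oxidase, had 2 of 11 subunits called in the shared component (18.2%), where 3.04% of all genes were called. COX7C, a small membrane subunit, stood at 0.28, 0.55, 0.16 and 0.61. Array 4 was highest, then arrays 2, 1 and 3, an order also seen in NDUFB5 and NDUFC1. Members without a call at gene level had it too, among them NDUFB2, UQCRH and ATP5MG. Its share over all genes was not counted. Its shared value was 0.40 ± 0.042 (adjusted p = 0.00192) and its alternating value -0.18 ± 0.042 (adjusted p = 0.0587).

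COX7B, another small membrane subunit, stood at 0.22, 0.28, 0.13 and 0.19, positive on all arrays with overlapping orientations (shared 0.21 ± 0.042, adjusted p = 0.0449). Its call was lost without array 2 (adjusted p = 0.313 in limma), without array 4 (0.153) and under 4 other alternatives, among them arrays centred on their medians (0.0527). COX6B1, a subunit on the intermembrane face, stood at 0.25, 0.013, 0.23 and -0.24. It was positive on arrays 1 and 3 and lower on arrays 2 and 4, with the highest alternating value of the members (0.18 ± 0.050, adjusted p = 0.0857).

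The other complex IV subunits (COX4I1, COX4I2, COX5A, COX6A2, COX6C, COX7A1, COX7A2 and COX8A) lay between -0.045 and 0.086 in the shared component, and none passed in either component. Among them the tissue-restricted isoforms COX4I2, COX6A2 and COX7A1 stood at 0.052, -0.0085 and 0.051. COX7A2L, a related protein of respiratory supercomplexes, was positive on all arrays (0.066, 0.089, 0.18 and 0.094; adjusted p = 0.282 in limma).

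Complex V, the ATP synthase, consists of the F1 part in the matrix and of the membrane part Fo with a peripheral stalk. F1 holds the catalytic head and the central stalk, to which gamma and epsilon belong. None of the 12 measured subunits of complex V passed at gene level in either component in limma. An unadjusted p under 0.05 was reached by 8 in the shared and 8 in the alternating component. Of all 12483 genes, 1822 and 3197 reached it. The F1 subunits alpha (ATP5F1A), gamma (ATP5F1C) and epsilon (ATP5F1E) had shared values of 0.15, 0.11 and 0.071. All 12 subunits were negative in the alternating component. In 9 of 9 Fo and peripheral stalk subunits both of arrays 2 and 4 lay above both of arrays 1 and 3. This order was also seen in 1 of 3 F1 subunits (ATP5F1C, of the central stalk) and in 31.1% of all genes. The medians of the 9 were -0.035 and -0.079 on arrays 1 and 3 and 0.14 and 0.22 on arrays 2 and 4. The split was not tested over the group, and arrays of 1 orientation share their dyes.

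ATP5MK, a small Fo-associated protein also called DAPIT, stood at 0.16, 0.34, -0.046 and 0.23 (shared 0.17 ± 0.048, adjusted p = 0.133). ATP5PD, subunit d of the peripheral stalk, was negative on all arrays, at -0.40, -0.12, -0.17 and -0.14 (shared -0.21 ± 0.048, adjusted p = 0.0698). ATP5PF, coupling factor 6 of the same stalk, stood at -0.035, 0.27, -0.049 and 0.24 (alternating -0.15 ± 0.039, adjusted p = 0.0760). Of its 2 probes 1 passed in the alternating component (-0.26 ± 0.052, adjusted p = 0.0321) and the other stood at -0.030 ± 0.055. The shared values of ATP5PD and ATP5PF, of 1 stalk, had opposite signs, -0.21 and 0.10. Neither passed in limma (adjusted p = 0.0698 and adjusted p = 0.263).

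The c subunit, which forms the ring of Fo, has the same mature protein from 3 genes. ATP5MC1 stood at -0.24, -0.022, -0.40 and 0.048 (shared -0.15 ± 0.045, adjusted p = 0.140; alternating -0.17 ± 0.045, adjusted p = 0.0761). ATP5MC3 stood at -0.17, 0.12, -0.15 and 0.064 over 2 probes, of which 1 passed in the alternating component (-0.24 ± 0.055, adjusted p = 0.0463) and the other stood at -0.014 ± 0.052. ATP5MC2, named after its values were seen to complete the family, stood at -0.025, 0.21, 0.030 and 0.28 (shared 0.12 ± 0.041, adjusted p = 0.204). All 3 were higher on arrays 2 and 4, and cross-hybridisation among them was not tested.

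ATP5F1C also had 2 probes that differed. In the alternating component they stood at -0.23 ± 0.050 (adjusted p = 0.0399) and 0.11 ± 0.060. ATP5IF1, the protein that inhibits ATP hydrolysis by the synthase, stood at -0.39, -0.21, -0.23 and -0.10. It was negative on all arrays (shared -0.23 ± 0.046, adjusted p = 0.0379), where the 3 F1 subunits had positive shared values. Its call was lost without array 2 (adjusted p = 0.262 in limma) and without array 4 (0.104).

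**Figure D3:**
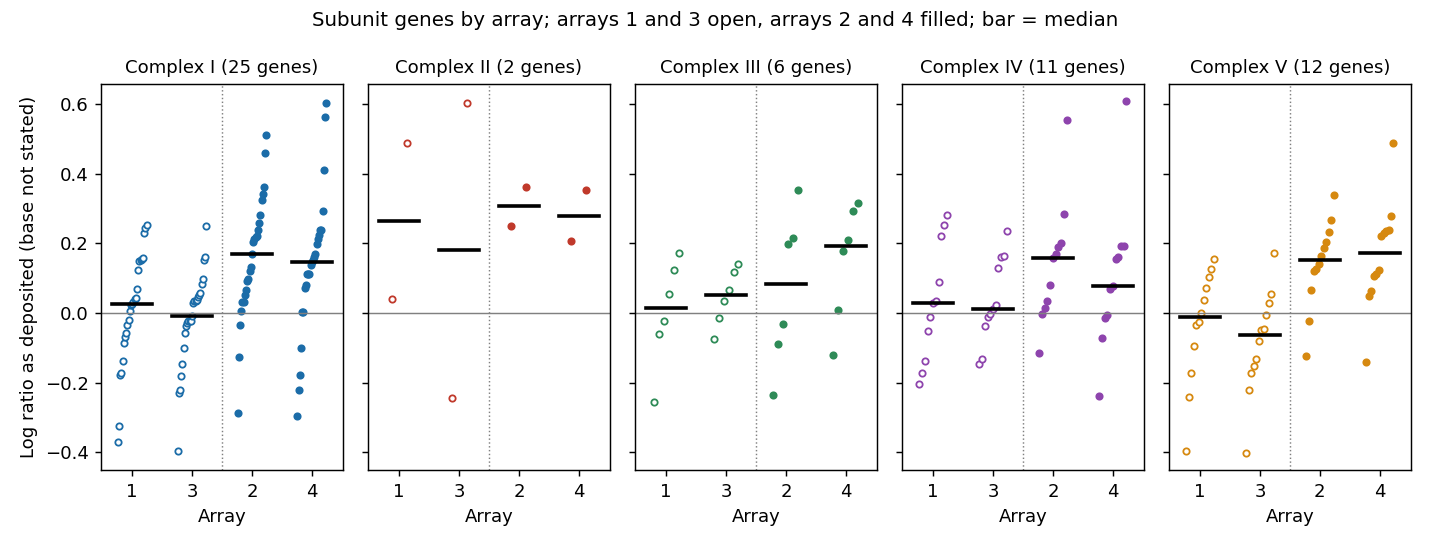
Log ratio as deposited (y axis, base not stated) of the measured subunits of complexes I to V on each of the 4 arrays (x axis), with the median as a bar. The medians of complex V were -0.012 and -0.064 on arrays 1 and 3 and 0.15 and 0.17 on arrays 2 and 4, and those of complex I were 0.026 and -0.0089 and 0.17 and 0.15.

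Side by side, the shared medians of the subunits were 0.051 for complex I, 0.26 for complex II, 0.059 for complex III, 0.052 for complex IV and 0.088 for complex V. The alternating medians were, in the same order, -0.087, -0.035, -0.060, -0.043 and -0.12. All 5 had a positive shared and a negative alternating median, also with any 1 array left out, but the sizes moved. The shared median of complex III was 0.027 without array 3 and 0.025 without array 4, and that of complex IV 0.021 without array 2. The alternating median of complex II ran from -0.056 (without array 1) to -0.014 (without array 3), that of complex III from -0.11 (without array 2) to -0.035 (without array 3), and that of complex IV from -0.073 (without array 4) to -0.033 (without array 2). Negative alternating values made up 68% of the subunits of complex I, 50% of complex II, 66.7% of complex III, 81.8% of complex IV and 100% of complex V, where 53.8% of all genes were negative. Complexes were not tested against each other.

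Assembly factors insert cofactors and join subunits but are not part of the finished complexes. Of the 9 among the members, 7 were negative in the shared component, with a median of -0.020 and a range from -0.14 (COX15, of heme a synthesis) to 0.051 (COX17, a copper chaperone). None passed in either component in limma, with 1 and 2 at an unadjusted p under 0.05. Of 41 listed assembly factors of other names, 26 were measured, with a shared median of -0.0055 and none past the threshold in limma (3 at an unadjusted p under 0.05). TIMMDC1, an assembly factor of complex I, passed in the alternating component (-0.24 ± 0.043, adjusted p = 0.0376). This was 3.85% of the 26, where 3.29% of all genes passed.

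Of 21 listed regulators of respiratory gene transcription and of mitochondrial DNA, 18 were measured, and none passed in the shared component in limma (3 at an unadjusted p under 0.05). In the alternating component SSBP1, the mitochondrial single-stranded DNA binding protein, passed with a negative value (-0.27 ± 0.046, adjusted p = 0.0321). The transcription factor SP1 passed with a positive one (0.19 ± 0.039, adjusted p = 0.0474). These 2 were 11.1% of the 18, where 3.29% of all genes passed in that component. Subunits encoded by mitochondrial DNA were not analysed here.

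Of 31 listed genes of electron entry, coenzyme Q, carriers and channels, 19 were measured. In the shared component 2 passed, both positive (10.5%, where 3.04% of all genes passed). VDAC2, a channel of the outer membrane, stood at 0.36, 0.56, 0.18 and 0.70 (shared 0.45 ± 0.048, adjusted p = 0.00216). Its order of arrays was that of COX7C and several other members. SLC25A3, the mitochondrial phosphate carrier, stood at 0.27, 0.070, 0.31 and 0.33 (shared 0.24 ± 0.051, adjusted p = 0.0478). SLC25A5, an ADP/ATP carrier, passed in the alternating component at -0.22, 0.31, -0.018 and 0.35 (alternating -0.22 ± 0.047, adjusted p = 0.0475). This was 5.26% of the 19, where 3.29% of all genes passed.

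**Figure D4:**
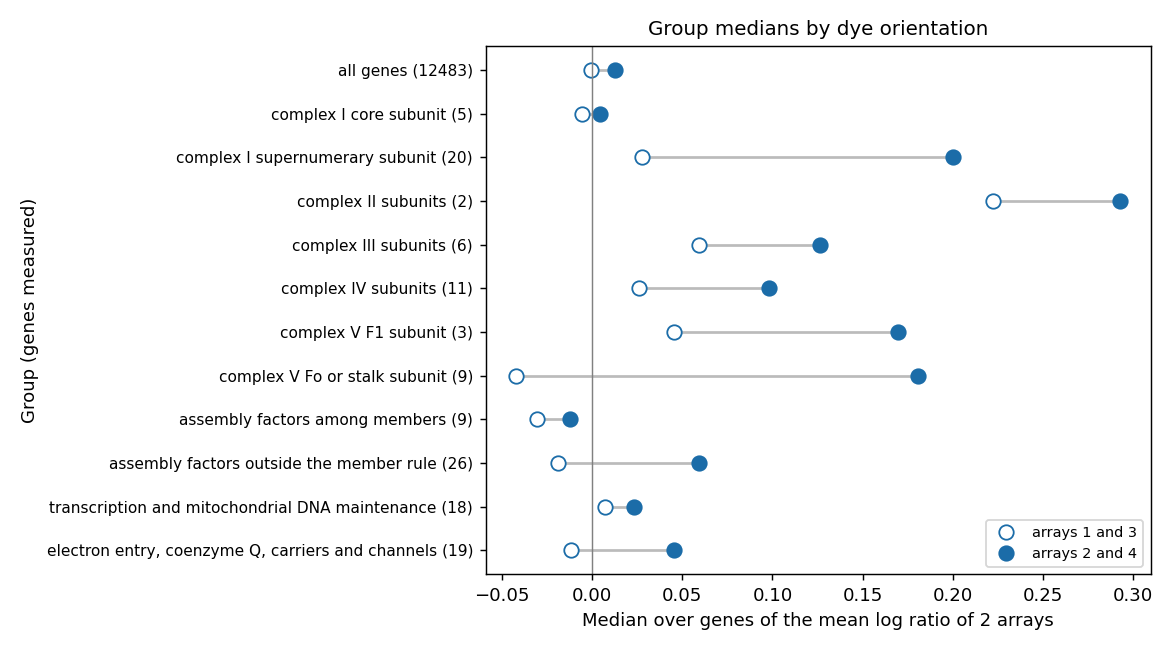
Median over the genes of each group (y axis) of the mean log ratio of arrays 1 and 3 and of the mean of arrays 2 and 4 (x axis, base not stated). In the Fo and peripheral stalk subunits (-0.042 and 0.18) and the supernumerary subunits of complex I (0.028 and 0.20) the medians lie apart. The core subunits of complex I (-0.0055 and 0.0042), the assembly factors among the members (-0.031 and -0.012) and all genes (-0.00029 and 0.013) have medians near 0 in both. Single genes can lie farther out, as NDUFV2 of the core does at -0.17 and 0.19.

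Of 21 member genes with 2 or more probes, all probes had 1 sign in 14 genes in the shared and in 13 in the alternating component. Of 93 member probes 7 passed in the shared component, where 2.07% of all probes did: 6 were positive (1.12% of all probes) and 1 negative (0.946%). In the alternating component 3 passed, where 4.28% of all probes did, and all 3 were negative (1.48% of all probes were called negative and 2.81% positive). The 7 shared calls fell to 3 without array 2 and to 3 without array 4, and the 3 alternating calls rose to 7 without array 1 and fell to 0 without array 2 or 4 (18 and 12 at an unadjusted p under 0.05 in limma). The share of all probes called with 1 array left out was not counted, so these changes cannot be set beside it. Each of the 8 genes called in the shared component, and NDUFB9, had 1 probe, so no second clone bears on those calls.

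Many nuclear genes of these complexes are known targets of the transcription factors NRF1, GABP of the ETS family, and YY1, so promoters are shown for some of the called genes. RefSeq promoters (GRCh38.p14, 250 bases before to 50 after the first listed start) were found for 57 of the 69 members. ATP5MC3, COX11, COX4I2, COX6C, COX7A1, NDUFAF6, NDUFB5, NDUFB9, NDUFC2, NDUFS5, SDHC and UQCRB were not matched. The letters searched on both strands were GCGCA, any base, then GCGC for NRF1, CCGGAAG for ETS factors and AAGATGGC for YY1. These are matches of letters, not sites bound.

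The NRF1 letters occurred in 10 of 57 members (17.5%), where 9.74% of the promoters of 10084 measured genes and 6.28% of 27305 genes in the table held them. The ETS letters occurred in 13 (22.8%, where 15.2% and 10.7% held them) and the YY1 letters in 8 (14.0%, where 4.29% and 3.03% held them). At least 1 motif occurred in 27 members (47.4%, where 25.8% and 17.9% held 1), and ETS and YY1 matches overlapped in 0 members. Median GC content was 59.3% in members and 64.0% in measured genes. The ETS letters were in 1 of 21 promoters of complex I, 2 of 5 of complex III, 3 of 8 of complex IV and 4 of 11 of complex V.

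Of the 6 genes called in the shared component that had a promoter entry, 2 held NRF1 letters and 0 the other motifs, while 25 of the other 51 members held at least 1 motif. The 250 bases before the start are shown for the 4 of these 6 with the smallest p, so that 3 positive genes can be set beside the negative gene NDUFA8. Capitals mark the NRF1 letters. In NDUFA8 they mark the 4 bases before the start that belong to a match running past it. NDUFC1 has 4 listed starts.
SDHA (chr5:218070-218319, plus strand): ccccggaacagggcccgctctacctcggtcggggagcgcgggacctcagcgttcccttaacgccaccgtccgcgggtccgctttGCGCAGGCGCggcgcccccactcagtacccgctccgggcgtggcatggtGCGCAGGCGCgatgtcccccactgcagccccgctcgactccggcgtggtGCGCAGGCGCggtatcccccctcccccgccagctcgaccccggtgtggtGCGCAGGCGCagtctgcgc
COX7C (chr5:86617691-86617940, plus strand): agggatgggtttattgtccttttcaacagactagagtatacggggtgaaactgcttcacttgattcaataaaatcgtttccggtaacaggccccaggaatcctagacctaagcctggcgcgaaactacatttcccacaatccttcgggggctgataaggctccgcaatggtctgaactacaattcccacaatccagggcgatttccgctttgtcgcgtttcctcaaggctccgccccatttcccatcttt
NDUFC1 (chr4:139302552-139302801, minus strand): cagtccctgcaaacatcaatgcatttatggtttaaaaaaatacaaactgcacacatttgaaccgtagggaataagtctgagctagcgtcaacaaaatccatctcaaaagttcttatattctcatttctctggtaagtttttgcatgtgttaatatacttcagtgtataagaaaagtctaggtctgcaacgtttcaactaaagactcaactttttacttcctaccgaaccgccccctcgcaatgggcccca
NDUFA8 (chr9:122159780-122160029, minus strand): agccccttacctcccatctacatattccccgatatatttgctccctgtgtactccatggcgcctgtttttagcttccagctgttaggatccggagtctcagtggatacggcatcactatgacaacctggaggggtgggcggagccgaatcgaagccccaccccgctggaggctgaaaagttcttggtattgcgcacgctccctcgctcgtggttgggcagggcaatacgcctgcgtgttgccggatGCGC

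SDHA held the NRF1 letters 4 times, each match beginning 49 bases after the one before. Of 27305 genes in the table, 14 (0.0513%) held 4 or more such matches, and SDHA was the 1 member among them. COX7C and NDUFC1 held none of the motifs. The NRF1 letters occurred in SDHA, with the highest shared value of the members, and in NDUFA8, with the lowest. No match says only that these letters are not in this window.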

How the data were processed

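RNA of A549 cultures was measured on 4 two-colour cDNA arrays. The authors used ArrayMagic with variance-stabilizing normalization (VSN), per the labels, and deposited log ratios of unstated base, in which ratios of dim spots are compressed. Versions and spot filters are not stated.

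The deposited values were not scaled further. Probes with 1 symbol were averaged per gene, and all 69 members matched RefSeq gene IDs. limma 3.58.1 (R 4.3.3) was fitted to 12483 genes and to 26629 probes with a shared and an alternating coefficient, on 2 residual and 5.89 and 7.22 prior degrees of freedom. On simulated data for the shared component over 12483 genes, 64 of 100 genes changed by 0.25 and 99 of 100 changed by 0.5 were recovered, with 15 false among 178 calls.

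Named genes are members called at gene or probe level and, per complex, the 2 with the largest statistic in each component. Genes of other lists are named where called. Members and lists were chosen with earlier results of these data known. The alternatives changed the scaling, the second term, the moderation (statmod 1.5.0), the threshold, the choice of probe and the set of genes, or left out each array. Figures were drawn with matplotlib 3.10.9.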

Additional observations from a re-analysis of the deposited data

Results flagged for a closer look

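NDUFS5 on array 4 (0.162) lay far from the other 3 arrays (0.245 to 0.259), a gap of 0.862 of its whole range. Of 28 genes and medians checked in this way it was the 1 that stood out, and chance alone gives about 1 in 20.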

How the results depend on the processing

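All 12 group medians kept their sign under every alternative run, and each moved by less than the standard deviation of its array medians. The genes were chosen with this pattern known, so the kept signs support nothing further. The member median lay between 0.041 and 0.064 in the shared and between -0.089 and -0.066 in the alternating component. Counts of calls depended on the fit, and without moderation 0% of all genes were called in the shared component. The 8 member genes called in the shared component became 4 at an adjusted p of 0.01, 13 at 0.1, 2 without the other term (1.3%, 4.91% and 1.25% of all genes) and 0 without moderation (15 at an unadjusted p under 0.05 in limma), and 3 to 17 when 1 array was left out (1.43% to 11.8% of all genes). The 7 shared probes became 1 without the other term, 0 without moderation (20 at an unadjusted p under 0.05 in limma) and 3 to 10 with 1 array left out. The single gene called in the alternating component became 5 with quantile normalization, 8 with the probe of largest statistic and 13 at 0.1, where 3.64%, 14.3% and 11.2% of all genes were called. It became 0 with centring and with MAD scaling (27 and 26 at an unadjusted p under 0.05 in limma), where 2.86% and 2.96% of all genes were called. It was also 0 at 0.01, without the other term and without moderation (26, 14 and 13 at an unadjusted p under 0.05 in limma), where 0.0561%, 0.0801% and 0.00801% were. With 1 array left out it became 0 to 20, the 20 without array 1, where 18.4% of all genes passed. The 3 alternating probes became 6 with quantile normalization, 0 without the other term, 0 without moderation (20 and 18 at an unadjusted p under 0.05 in limma) and 0 to 7 with 1 array left out. Shares of all probes called were not counted for these alternatives, so the changes in probe counts cannot be set beside them. The cause of the changes in counts was not tested. The fitted shared value of SDHC reversed without array 1 (-0.0074), where array 3 alone stands for its orientation and so weighs more than in a plain mean; over the 4 fits with 1 array left out it ran from -0.0074 to 0.13. Of 297 recomputed values of named genes, 239 stayed on their side of the threshold, 31 lost and 26 gained a call, and 1 reversed. The main fit called 9 gene and component pairs, with 11 alternatives each, and the 31 losses all fall on these. The 239 also count pairs without a call that stayed without one. SDHA kept its call in 10 of 11 alternatives, COX7C and NDUFB5 in 9, NDUFC1 and NDUFA8 in 8, NDUFS5 and ATP5IF1 in 7, and COX7B and NDUFB9 in 5 of 11. NDUFA4 was not analysed here, so moving it between complexes was not run. Each log ratio already pairs a let-7a-3 culture with a parental culture on 1 array. No further pairing was fitted, because the 4 arrays form 1 group. The table holds no signal over background, so dim spots could not be left out.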
